A study of Mus musculus with 3 samples.

Results

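The genes described here handle glucocorticoids and thyroid hormone in cultured mouse dermal fibroblasts. They are the activating enzymes Hsd11b1 and Dio2, the receptors Nr3c1 and Thra, and the glucocorticoid targets Fkbp5, Sgk1 and Tsc22d3. These 7 genes were selected on earlier results of the same arrays, in which Hsd11b1 and Dio2 lay among the genes furthest below wild type. All probe sets annotated to exactly 1 of these symbols were taken. This gave 7 probe sets for 6 genes, out of 7843 named genes in the table. Tsc22d3, a leucine zipper protein induced by glucocorticoids, was named by no probe set and is not analysed here. The 3 arrays, 1 per genotype, came from dermal fibroblasts. FGFR3Act cells carry the G374R change in the growth factor receptor Fgfr3 on an allele labelled neo-, and their receptor signals without ligand. FGFR3KO cells carry G374R on an allele labelled neo+ and, per the labels, express no functional receptor. FGFR3WT, is wild-type Bl6. The strain of the mutant mice, the age of the animals and the number pooled are not given, and neither is whether the fibroblast growth medium held glucocorticoid or thyroid hormone.

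Both hormones act through nuclear receptors, and both are switched on or off inside the target cell. The enzyme made from Hsd11b1 turns inactive 11-keto glucocorticoids such as cortisone into active ones, using NADPH that H6pd supplies in the endoplasmic reticulum. Active hormone binds the glucocorticoid receptor Nr3c1, which is held ready by heat shock proteins and immunophilins and then drives genes such as Fkbp5 and Sgk1. In skin, glucocorticoids are known for restraining inflammation and thinning the dermis. The deiodinase made from Dio2 converts the prohormone thyroxine into the active hormone triiodothyronine, which binds Thra and its relative Thrb as partners of RXR receptors.

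Values are MAS5 signals, the linear intensity of a probe set in arbitrary units. A signal was treated as measured above a floor, the 40th percentile of each array, which lay at 123 on FGFR3Act, 122 on FGFR3KO and 121 on FGFR3WT. With 1 array per genotype there is no spread between cultures and no test. A difference of 2-fold was used to describe size only, and differences are on the log2 scale, the first array minus the second. The arrays allow a look only at the gap between probe sets of the same gene. Where a gene had more than 1 probe set above the floor, the brighter pair gave log2 differences that were apart by a median of 0.30 for FGFR3Act against FGFR3WT (426 genes), 0.39 for FGFR3KO against FGFR3WT (422 genes) and 0.43 for FGFR3Act against FGFR3KO (407 genes). The 90th percentile of that gap was 0.88, 0.94 and 1.26 in the same order. For FGFR3Act against FGFR3WT, 28 brighter probe sets were at least 2-fold apart, of whose dimmer partners 24 pointed the same way and 13 were also 2-fold apart. The same counts were 16, 14 and 2 for FGFR3KO against FGFR3WT, and 64, 51 and 25 for FGFR3Act against FGFR3KO. These gaps are within arrays and say nothing of the spread between cultures.

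The fibroblast label was borne by 14 of 15 fibroblast markers on the array, which were above the floor on each of the 3 arrays. Macrophage and leukocyte markers separated FGFR3Act from the others. Of 22 such markers, 20 were on the array and none read 0. FGFR3Act had 17 of them above its floor, and each of the other arrays had 2 (Cd14 and Cx3cr1). Below the floor on FGFR3Act as well were Ptprc (29.8), Itgam (35.2) and Aif1 (39.7). Cx3cr1 was not highest there, with 240 on FGFR3Act, 285 on FGFR3KO and 199 on FGFR3WT. The summed signals of all 20 were 39262 on FGFR3Act, 1622 on FGFR3KO and 1403 on FGFR3WT. Ctss (11427) and Lyz2 (7037) made up much of the FGFR3Act sum. The macrophage growth factor receptor gene Csf1r had signals of 1446, 90.2 and 73.8 in that order. The summed fibroblast markers were 58388 on FGFR3Act, 84183 on FGFR3KO and 62959 on wild type. On FGFR3Act 9 of 14 compared fibroblast markers were lower than on FGFR3WT (median log2 difference -0.29), with the growth factor receptor gene Pdgfrb 2.35-fold lower, and 11 of 14 were lower than on FGFR3KO (median -0.45). None of the 5 endothelial or 2 keratinocyte markers on the array was above the floor on any of the arrays, and of 4 adipocyte, 4 mural and 4 melanocyte markers at most 2 of a kind were. In RNA from whole cultures, fewer cells of a type and less RNA per cell cannot be told apart. The part of the macrophage and fibroblast markers in the differences of FGFR3Act, the lower Fkbp5 and Thra among them, was not tested. In FGFR3KO against FGFR3WT, 18 of these 20 markers were below the floor on both arrays.

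**Figure D1:**
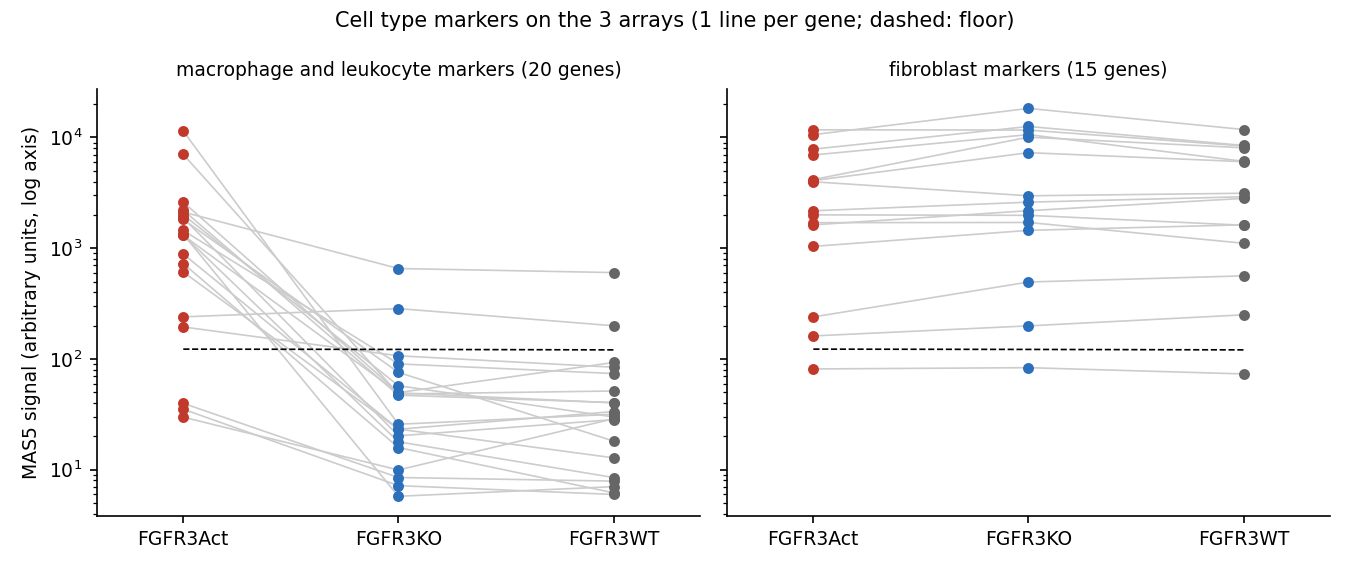
MAS5 signal on a log axis for 20 macrophage and leukocyte markers (left) and 15 fibroblast markers (right) on the FGFR3Act, FGFR3KO and FGFR3WT arrays. Each point is a gene, lines join the same gene and the dashed line is the floor. On FGFR3Act 17 of the macrophage markers lie above the floor, against 2 on each of the other arrays.

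Of the 6 genes with a probe set, 5 were above the floor on all 3 arrays. The activating enzymes were lower on both mutant arrays than on wild type, Hsd11b1 furthest on FGFR3Act and Dio2 furthest on FGFR3KO. Fkbp5 and Sgk1 were highest on wild type too, Fkbp5 in the same order as Hsd11b1 and Sgk1 only 1.05-fold above FGFR3Act. Fkbp5 and Thra were lowest on FGFR3Act and Sgk1 on FGFR3KO, while Thra was 1.05-fold higher on FGFR3KO than on wild type. Of the 5, FGFR3Act had 3 at least 2-fold below FGFR3WT and 0 as far above it, while 4.78% of 5246 genes were lower and 4.14% higher by that much. On FGFR3KO against FGFR3WT, 3 of 5 were at least 2-fold lower and 0 higher, while 3.63% of 5186 genes were lower and 1.93% higher. On FGFR3Act against FGFR3KO, 2 of 5 were higher and 2 lower, while 8.32% of 5299 genes were higher and 7.51% lower. Because these contrasts were known when the genes were picked, the counts describe the selection and nothing is read from them. The comparisons with wild type share the FGFR3WT array, so a low or high value there enters both.

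**Figure D2:**
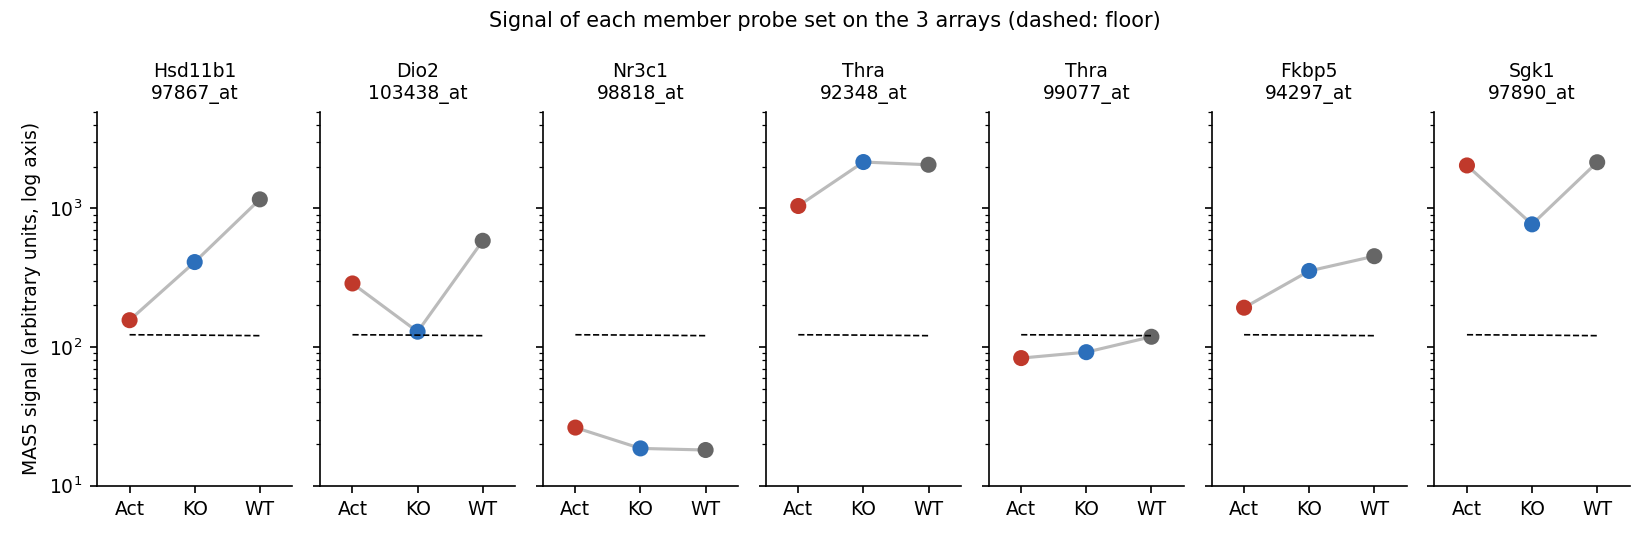
MAS5 signal on a log axis for each of the 7 probe sets, 1 panel per probe set, on the FGFR3Act (Act), FGFR3KO (KO) and FGFR3WT (WT) arrays. The dashed line is the floor. Hsd11b1, Dio2, Fkbp5 and Sgk1 are highest on WT, Sgk1 only just above Act. Sgk1 has its low point on KO, Thra 92348_at and Fkbp5 have theirs on Act, and Nr3c1 lies under the floor on all 3.

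Hsd11b1 (probe set 97867_at) had a signal of 156 on the FGFR3Act array, 410 on FGFR3KO and 1162 on FGFR3WT. Wild type was the high array, FGFR3KO lay between, and FGFR3Act came close to the floor of 123. The log2 difference was -2.90 for FGFR3Act against FGFR3WT, a signal 7.44-fold lower, and 4 of 5246 genes were lower still. For FGFR3KO against FGFR3WT it was -1.50, or 2.83-fold lower, with 35 of 5186 genes further down. FGFR3Act was also 2.63-fold below FGFR3KO (log2 difference -1.39). A floor at the 60th percentile, 335 on FGFR3Act, stands above the FGFR3Act signal and brings these differences to -1.79 from FGFR3WT and -0.29 from FGFR3KO. Only this probe set stands for the gene, so no other checks it.

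The enzyme's partners did not share this pattern at the 2-fold level. H6pd, which makes the NADPH that sets Hsd11b1 to work as an activator, had 1683 on FGFR3Act, 2245 on FGFR3KO and 1903 on FGFR3WT. The glucose 6-phosphate transporter Slc37a4, which feeds H6pd, had 268 on FGFR3Act, 269 on FGFR3KO and 259.7 on FGFR3WT. Hsd11b2, the enzyme that inactivates glucocorticoids, was below the floor on each array, with 33.7, 30.9 and 22.7. Of 8 genes of glucocorticoid enzymes and transport, 7 were on the array and 4 could be compared between FGFR3Act and FGFR3WT. Hsd11b1, itself selected on earlier results, was the single gene at least 2-fold lower among them and 0 were 2-fold higher. Of all 5246 genes, 4.78% were lower and 4.14% higher by that much. The steroid exporter gene Abcb1b had 163 on FGFR3Act and was below the floor on FGFR3KO (72.9) and FGFR3WT (76.2).

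Dio2 (103438_at) had 287 on FGFR3Act, 129 on FGFR3KO and 584 on FGFR3WT. Wild type was again the high array, but here FGFR3KO was the low one, just above its floor of 122. The log2 difference was -2.18 for FGFR3KO against FGFR3WT, a signal 4.53-fold lower, with 8 of 5186 genes further down. FGFR3Act was 2.03-fold below FGFR3WT (log2 difference -1.02), which sits at the 2-fold line. That value was -0.93 after quantile normalisation, -0.88 after cyclic loess and -0.99 with an offset of 12 in place of the floor. FGFR3Act was 2.23-fold above FGFR3KO. A floor at the 60th percentile, 353 on FGFR3KO, stands above both mutant signals and brings the difference of FGFR3KO from FGFR3WT to -0.73.

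Dio2 is known as a gene that cyclic AMP induces through its promoter, and the promoter is shown because the start of the gene holds that element. The sequence is from RefSeq (GRCm38.p6, chr12:90738989-90739288, minus strand, 250 bases before to 50 after the start of transcription, 5′ to 3′). Capitals mark the cyclic AMP response element TGACGTCA, which reads the same on both strands and lies from -95 to -88 relative to the start.
Dio2: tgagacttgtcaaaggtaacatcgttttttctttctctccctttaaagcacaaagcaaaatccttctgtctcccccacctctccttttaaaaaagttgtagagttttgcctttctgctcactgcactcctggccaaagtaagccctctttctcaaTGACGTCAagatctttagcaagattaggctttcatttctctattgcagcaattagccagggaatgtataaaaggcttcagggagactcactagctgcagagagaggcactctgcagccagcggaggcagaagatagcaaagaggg
Of 32851 RefSeq windows of 300 bases, 1.79% hold these 8 letters. The match describes the sequence, and whether it bears on the lower Dio2 signals was not tested.

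Genes that set how much thyroid hormone is made or enters the cell gave mixed values. Slc7a5 and Slc3a2, the light and heavy chains of an amino acid exchanger that also carries thyroid hormone, were lower on FGFR3Act. Slc7a5 had 797 on FGFR3Act, 1813 on FGFR3KO and 1569 on FGFR3WT. Slc3a2 had 2782 on FGFR3Act, 4775 on FGFR3KO and 4353 on FGFR3WT. FGFR3Act was 2.27-fold below FGFR3KO for Slc7a5, and 1.72-fold for Slc3a2. Dio1 was below the floor on each array, and of 11 deiodinase and transport genes 7 were on the array and 3 could be compared. Dio2, by contrast, had its low point on FGFR3KO.

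Genes known for the turnover of the Dio2 protein were lower on FGFR3KO than on FGFR3WT, each by less than 2-fold. Wsb1, which marks the enzyme for ubiquitination, had 861 on FGFR3Act, 578 on FGFR3KO and 964 on FGFR3WT. Usp33, which removes that ubiquitin, had 360 on FGFR3Act, 261 on FGFR3KO and 480.3 on FGFR3WT. The ubiquitin ligase gene Marchf6 had 1163 on FGFR3Act, 743 on FGFR3KO and 1156 on FGFR3WT. Together with the selenophosphate synthetase gene Sephs2, which serves selenoproteins such as Dio2, 4 of 4 compared genes were lower on FGFR3KO. Their median log2 difference was -0.69, beside -0.02 over all 5186 genes. At 2-fold 0 of the 4 were apart, where 3.63% of all genes were lower and 1.93% higher. Sephs2 was only 1.09-fold lower. The list was chosen with earlier results of these arrays known, so its count and median are descriptive and nothing is read from them.

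The glucocorticoid receptor gene Nr3c1 (98818_at) had 26.2 on FGFR3Act, 18.6 on FGFR3KO and 18.1 on FGFR3WT. All lay far below the floor, so no difference is given. This dim signal sets a bound for the probe set and does not show that the cells lacked the receptor. The receptor's partners were measured better. Of 12 listed receptors and chaperones, 9 were on the array and 8 could be compared. On FGFR3Act 1 of them, Fkbp5, itself selected on earlier results, lay at least 2-fold below FGFR3WT and 0 above. Among all 5246 genes, 4.78% were lower and 4.14% higher by that much. The chaperone gene Hsp90aa1 had 9529 on FGFR3Act, 5222 on FGFR3KO and 5778 on FGFR3WT.

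The immunophilins Fkbp5 and Fkbp4 compete for the same place on the receptor complex, where Fkbp5 holds hormone binding down and Fkbp4 favours transport to the nucleus. Fkbp5 (94297_at) had 192 on FGFR3Act, 354 on FGFR3KO and 452 on FGFR3WT. FGFR3Act was the low array, 2.35-fold below FGFR3WT (log2 difference -1.23), and FGFR3KO was 1.28-fold below FGFR3WT. The difference between FGFR3Act and FGFR3KO was -0.88. Under the 60th percentile floor FGFR3Act differed by -0.43 from FGFR3WT, no longer 2-fold, and -0.08 from FGFR3KO. Fkbp4 had 1360 on FGFR3Act, 3226 on FGFR3KO and 2108 on FGFR3WT by its brighter probe set, 2.37-fold lower on FGFR3Act than on FGFR3KO. Its other probe set did not share this, with 483, 487 and 492 in the same order.

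The thyroid hormone receptor gene Thra was represented by 2 probe sets. The brighter, 92348_at, had 1041 on FGFR3Act, 2160 on FGFR3KO and 2065 on FGFR3WT. FGFR3Act was low, and FGFR3KO was 1.05-fold above FGFR3WT. The log2 difference was -0.99 for FGFR3Act against FGFR3WT, just inside the 2-fold line where Dio2 at -1.02 was just outside it, and -1.05 for FGFR3Act against FGFR3KO. The other probe set, 99077_at, was below the floor on each array with 83.2, 91.8 and 119. Averaging both probe sets brought the difference of FGFR3Act from FGFR3KO to -0.60. Nr1d1, a clock repressor gene whose end overlaps that of Thra on the other strand, had 403 on FGFR3Act, 333 on FGFR3KO and 374 on FGFR3WT.

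RXR genes, whose products pair with Thra, were likewise lower on FGFR3Act than on FGFR3KO. Rxra had 425 on FGFR3Act, 967 on FGFR3KO and 636 on FGFR3WT, a signal 2.27-fold lower on FGFR3Act than on FGFR3KO. A second probe set of Rxra had 233, 293 and 187 in that order. Its difference of FGFR3Act from FGFR3KO was smaller (-0.33), and against FGFR3WT it was of opposite sign, 0.32 where the brighter probe set gave -0.58. Rxrb had 1135 on FGFR3Act, 1938 on FGFR3KO and 1559 on FGFR3WT. Thrb and Rxrg were below the floor throughout. Of 6 genes listed with these receptors, Nr1d1 among them, 4 could be compared (Thra, Rxra, Rxrb and Nr1d1). In 2 of them (Thra and Rxra) FGFR3Act lay at least 2-fold below FGFR3KO, with 0 above. Thra was itself selected on earlier results, the list was chosen with them known, and the second Rxra probe set was not 2-fold apart. The count is therefore descriptive. Of all 5299 genes, 7.51% were lower and 8.32% higher by that much.

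Sgk1, a kinase gene that glucocorticoids and serum both induce, followed another pattern. Its probe set 97890_at had 2041 on FGFR3Act, 767 on FGFR3KO and 2152 on FGFR3WT. FGFR3Act was 1.05-fold below FGFR3WT, and FGFR3KO stood apart below both. The log2 difference was -1.49 for FGFR3KO against FGFR3WT, or 2.81-fold lower, with 36 of 5186 genes further down. It was 1.41 for FGFR3Act against FGFR3KO, or 2.66-fold higher. Across all settings tried the first lay between -1.49 and -1.43 and the second between 1.35 and 1.41. The only probe set lay above every floor tried on each array, so only the scalings and the offset could move these values. The narrow ranges do not measure robustness.

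**Figure D3:**
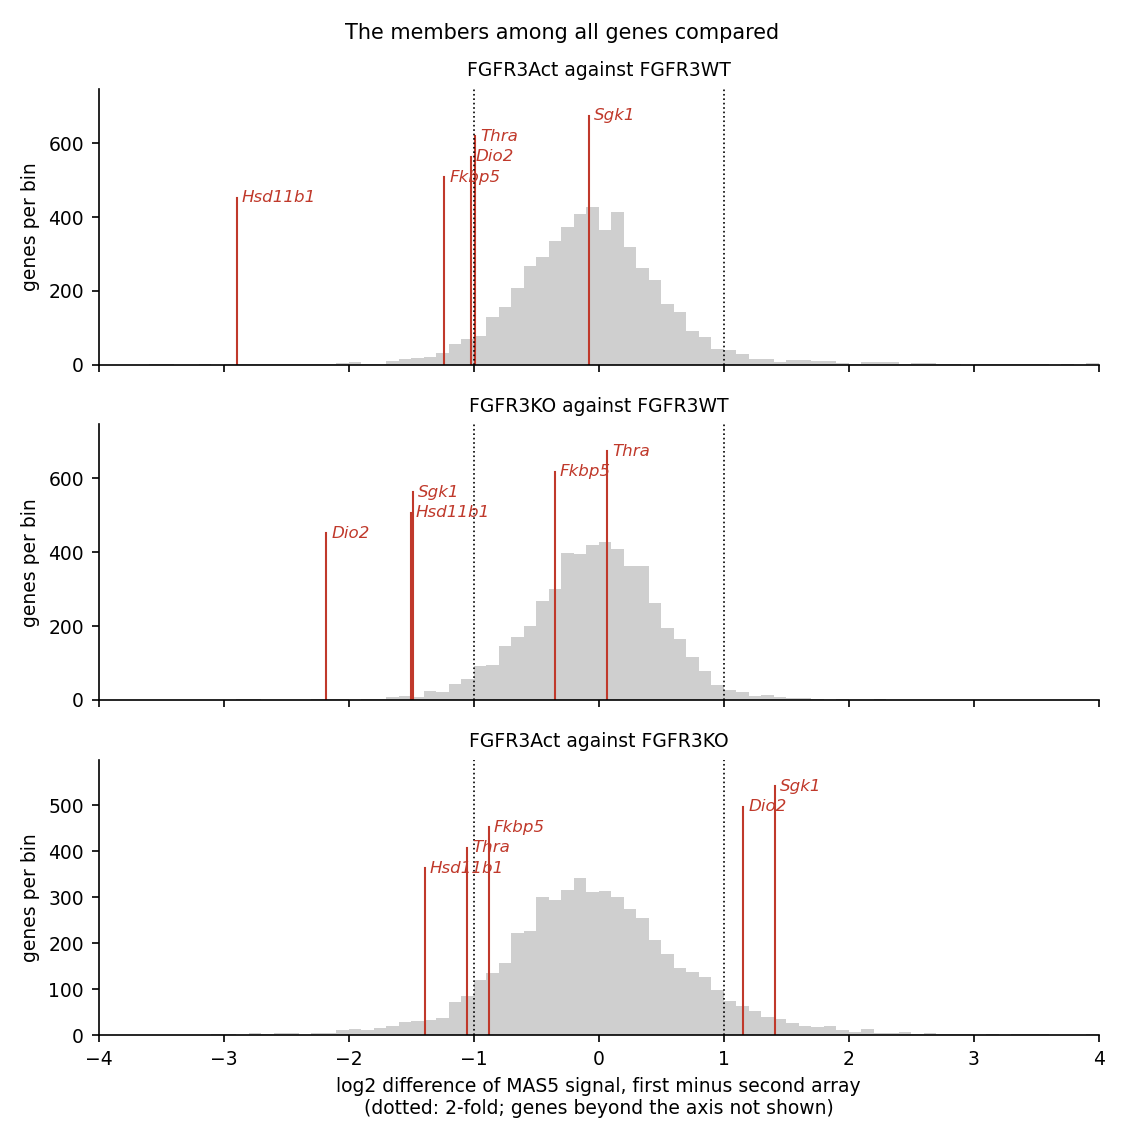
Number of genes by log2 difference (first minus second array, bins of 0.1) for the 3 pairs of arrays, with the 5 measured members as red lines, whose height carries no value, and dotted lines at 2-fold. Hsd11b1 stands at -2.90 in FGFR3Act against FGFR3WT, Dio2 at -2.18 in FGFR3KO against FGFR3WT, and Sgk1 and Dio2 lie on the higher side in FGFR3Act against FGFR3KO.

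Sgk1 has 6 annotated start windows in RefSeq, and 1 is shown because it holds a complete glucocorticoid response element. It lies at chr10:21993640-21993939 (GRCm38.p6, plus strand, 250 bases before to 50 after the start, 5′ to 3′). Capitals mark every match to AGAACA on either strand. They include the palindrome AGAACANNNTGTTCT, present as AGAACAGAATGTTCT from -189 to -175, whose arms are themselves matches to AGAACA.
Sgk1: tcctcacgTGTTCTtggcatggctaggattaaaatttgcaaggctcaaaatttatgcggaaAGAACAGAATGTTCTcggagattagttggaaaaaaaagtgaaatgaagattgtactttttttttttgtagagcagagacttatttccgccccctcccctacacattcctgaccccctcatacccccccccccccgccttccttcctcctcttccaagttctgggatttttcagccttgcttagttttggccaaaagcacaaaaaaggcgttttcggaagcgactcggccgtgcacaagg
The palindrome was found in 3 of 32851 windows (0.00913%), and AGAACA alone in 19.0%. Which of the starts the fibroblasts used is not given by the array. RefSeq windows were matched for Hsd11b1, Dio2, Fkbp5, Sgk1 and Tsc22d3. The single Fkbp5 and Hsd11b1 windows held none of 5 motifs searched on both strands, which were these, TGACGTCA, AGGTCA (in 16.3% of windows) and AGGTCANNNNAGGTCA (in 0.0152%). This says only that the letters are not in these windows.

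Genes known to be induced by glucocorticoids did not follow Hsd11b1 or Sgk1 as a group. This list was chosen with earlier results of these arrays known, so its counts and medians beside all genes are descriptive. Of 22 listed, 21 were on the array and 17 could be compared between FGFR3Act and FGFR3WT. At least 2-fold higher were 2 (Pdk4 and Lcn2) and lower was 1 (Fkbp5), beside 4.14% and 4.78% of all 5246 genes. The median log2 difference was -0.08, beside -0.07 over all genes. Pdk4, a kinase that restrains glucose oxidation, had 938 on FGFR3Act, 242 on FGFR3KO and 267 on FGFR3WT. Lcn2, an iron-scavenging acute-phase gene, had 1249 on FGFR3Act and was below the floor on FGFR3KO (87.1) and FGFR3WT (41.4), which makes FGFR3Act at least 10.3-fold higher than FGFR3WT. FGFR3Act is the array with 17 macrophage markers above the floor.

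On FGFR3KO against FGFR3WT, 16 of the induced genes could be compared, with 1 at least 2-fold higher and 1 lower (1.93% and 3.63% of all 5186 genes) and a median of -0.13 (-0.02 over all genes). The higher one was Cdkn1c, a cyclin-dependent kinase inhibitor, with 274 on FGFR3Act, 2315 on FGFR3KO and 479 on FGFR3WT. The lower one was Sgk1. Between FGFR3Act and FGFR3KO, 5 of 17 were higher (Lcn2, Pdk4, Dusp1, Sgk1 and Rgs2) and 2 lower (Cdkn1c and Ddit4) by at least 2-fold, beside 8.32% higher and 7.51% lower of all 5299 genes. The median was 0.13 for the list and -0.05 over all genes. The ERK phosphatase gene Dusp1 had 3987 on FGFR3Act, 1488 on FGFR3KO and 2275 on FGFR3WT, so like Sgk1 it was lowest on FGFR3KO. The mTOR inhibitor gene Ddit4 ran the other way, with 1055 on FGFR3Act, 2688 on FGFR3KO and 2011 on FGFR3WT. Rgs2, an inhibitor of G protein signalling, was at least 2.01-fold higher on FGFR3Act, and median centring brought it just under 2-fold.

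Many genes known to be repressed by glucocorticoids were higher on FGFR3Act. Of 14 listed, 13 were on the array and 11 could be compared with FGFR3WT, with 10 higher, 6 of them by at least 2-fold where 4.14% of all genes were, and a median log2 difference of 1.07, beside -0.07 over all 5246 genes. The exception was Mmp13, 1.86-fold lower. The 6 were the chemokine genes Cxcl1 (5.22-fold), Cxcl5 (3.56-fold), Ccl2 (2.70-fold) and Ccl7 (2.10-fold), the stromelysin gene Mmp3 (4.79-fold) and the prostaglandin synthase gene Ptgs2 (3.32-fold). These genes are also targets of inflammatory signals, macrophages express several of them, and the summed macrophage markers on the same array were 39262 against 1403 on FGFR3WT. Whether fibroblasts or macrophages made the higher transcripts was not tested. The list was also chosen with earlier results of these arrays known. Its count and median beside all genes therefore describe the list and are not independent support for a change in glucocorticoid action.

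On FGFR3KO the repressed genes were not higher than on FGFR3WT as a group. Of 11 compared, 0 were at least 2-fold higher and 2 were lower, beside 1.93% and 3.63% of all 5186 genes. The median was -0.31 for the list and -0.02 over all genes. The 2 were Mmp3 and the collagenase gene Mmp13. Mmp3 had 6733 on FGFR3Act, 205 on FGFR3KO and 1405 on FGFR3WT. Mmp13 had 488 on FGFR3Act, 185 on FGFR3KO and 908 on FGFR3WT. Between FGFR3Act and FGFR3KO, 8 of 11 were at least 2-fold higher and 0 lower (8.32% and 7.51% of all genes), with a median of 1.21 beside -0.05 over all 5299 genes. These values too describe a list chosen with earlier results known.

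Targets of thyroid hormone and coregulators of nuclear receptors were listed with earlier results of these arrays known, so nothing is read from their counts. Of 10 genes induced by thyroid hormone, 8 were on the array and 5 could be compared, with 0 at least 2-fold apart between either mutant and FGFR3WT. Over all genes, 4.78% were lower and 4.14% higher by that much on FGFR3Act, and 3.63% and 1.93% on FGFR3KO. The malic enzyme gene Me1 had 1946 on FGFR3Act, 937 on FGFR3KO and 1826 on FGFR3WT. FGFR3Act was 2.08-fold above FGFR3KO, and just short of 2-fold after quantile normalisation. Klf9, a transcription factor gene that both hormones induce, had 1369 on FGFR3Act, 1248 on FGFR3KO and 1506 on FGFR3WT. Of 14 coregulators, 11 were on the array, and 9 could be compared between either mutant and FGFR3WT. FGFR3Act had 0 at least 2-fold apart from FGFR3WT, and FGFR3KO had 1 higher and 0 lower. Between FGFR3Act and FGFR3KO, 0 of 10 were higher and 1 lower, beside 8.32% and 7.51% of all 5299 genes. Both calls were the arginine methyltransferase gene Carm1, with 723 on FGFR3Act, 1655 on FGFR3KO and 804 on FGFR3WT. It was 2.06-fold higher on FGFR3KO than on wild type, and 2.29-fold lower on FGFR3Act than on FGFR3KO.

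**Figure D4:**
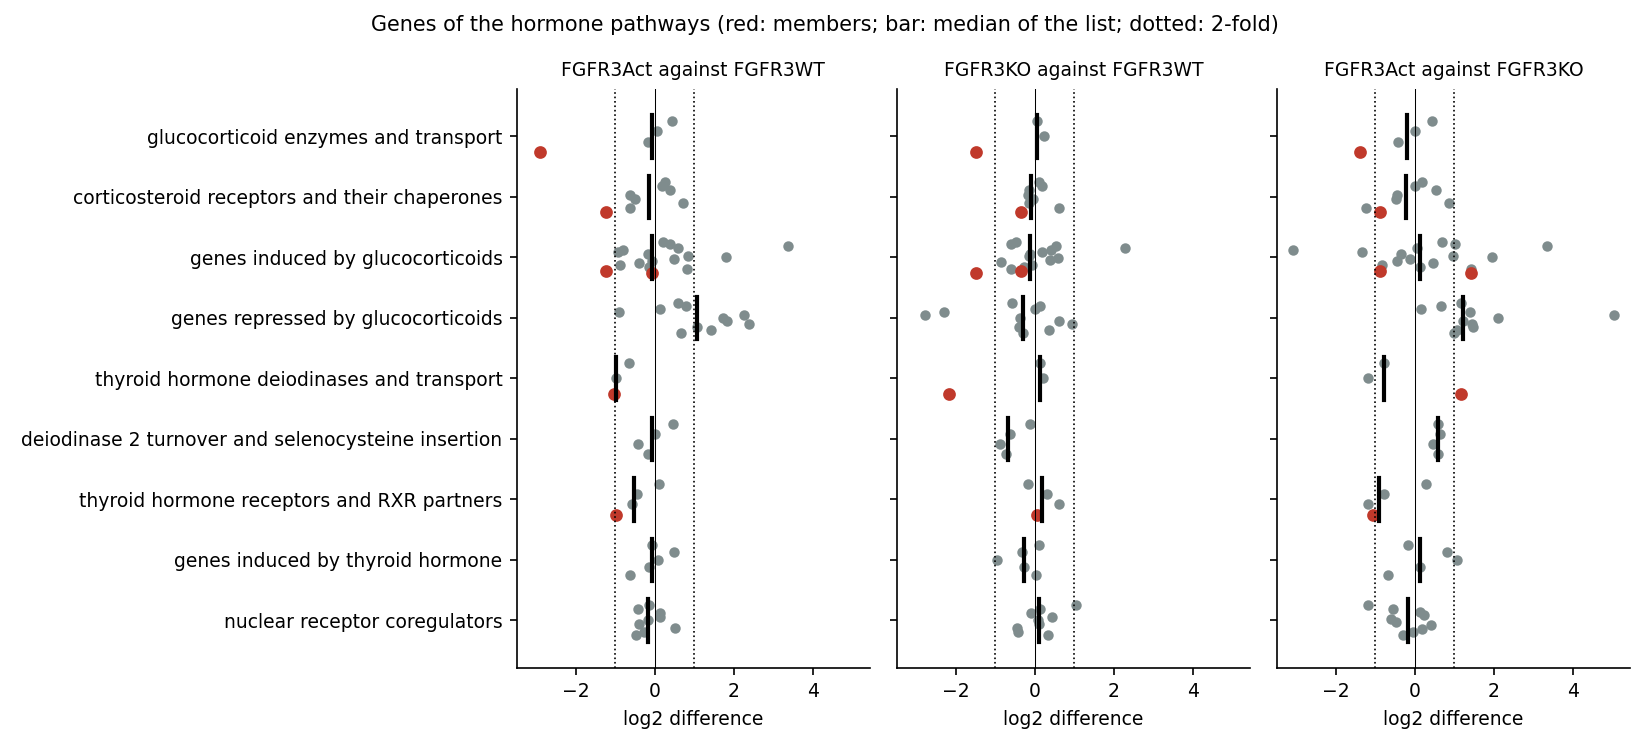
Log2 difference of each compared gene in 9 hormone pathway lists, 1 panel per pair of arrays, with members in red, other genes in grey, a black bar at the list's median and dotted lines at 2-fold. Vertical offsets only separate points. The list of genes repressed by glucocorticoids lies to the right of 0 in FGFR3Act against FGFR3WT (median 1.07) and FGFR3Act against FGFR3KO (median 1.21).

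The genes most like each member were found by the Euclidean distance between the log2 differences of FGFR3Act and of FGFR3KO from FGFR3WT, over 4506 genes above the floor on all 3 arrays. Sgk1 was most like the Wnt regulator gene Dkk2 (distance 0.13), Tnfrsf11b, which encodes the decoy receptor osteoprotegerin (0.14), and Parm1 (0.17). Tnfrsf11b had 3344 on FGFR3Act, 1356 on FGFR3KO and 3887 on FGFR3WT. Dio2 was most like Mmp13 (0.17) and Bpgm, an enzyme gene of red-cell glycolysis (0.24), while its next neighbour, the interferon-induced Ifit1, was further away (0.67).

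For Hsd11b1 the nearest of the ranked genes were Gas2, Isoc1 and the TGF-beta family ligand gene Gdf10, at distances of 0.91, 0.91 and 0.94. Hsd11b1 was picked among the genes furthest below wild type, where few genes lie. Genes below the floor on any array were not ranked, so nothing is read from the size of these distances. Gdf10 had 427 on FGFR3Act, 709 on FGFR3KO and 1695 on FGFR3WT, the same order as Hsd11b1 over a smaller range. Fkbp5 was most like Unc119, Tmem126a and the lysosomal iduronidase gene Idua, at 0.05, 0.06 and 0.07. Thra was most like Adgrd1, the peroxiredoxin gene Prdx4 and the ribosomal protein gene Rpl13a, at 0.03, 0.04 and 0.05. With 3 arrays a pattern has few degrees of freedom, and many genes can lie near a member whose differences are small.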

How the data were processed

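Biotin-labelled cRNA from total RNA was hybridised to Affymetrix arrays, per the labels' protocols. The deposited intensity values are linear MAS5 signals, per the submitters' processing notes, with version, scaling target and detection calls not given in the sources used here. Trimmed means (2% off either tail) lay between 606 and 614, which leaves the arrays on a common scale. The series states n = 3 per group, but the table holds 1 column per genotype, and what was combined in a column, if anything, is not given. Precision is limited by the number of arrays.

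Of 9889 probe sets, GEO's platform annotation gives 9053 with 1 symbol, 323 with several and the others none here. Gene identifiers matched RefSeq (GRCm38.p6) for 9041 of the 9053. Each of 7843 genes took its probe set of highest mean log2 signal. Signals under the 40th percentile of non-control probe sets were raised to it, and a gene was compared where above it on at least 1 array. Folds against a raised signal are given as "at least". Named were all members, list genes at least 2-fold apart (up to 6 per list and pair), and the 3 nearest genes of each member 2-fold apart in some pair. Other list genes named were chosen after their values were seen. Members and lists were chosen with earlier results of these data known. The arithmetic was tested on simulated data, with increases only, in signals far above the floor. Decreases to signals near the floor were not simulated. Tools were Python 3.11.15 with numpy 2.4.6 and pandas 2.3.3, and limma 3.58.1 for cyclic loess. Alternatives covered 3 scalings, floors at the 20th and 60th percentiles, an offset of 12, filters and probe set choice.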

Additional observations from a re-analysis of the deposited data

How the results depend on the processing

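Alternatives covered the scaling, the floor, the filter and the choice of probe set, and none reversed a called direction. Of 149 recomputed member differences, 139 stayed within 1.5-fold and on the same side of the 2-fold line, and 10 did not. Many of the 139 could not have moved, so this share does not measure robustness. The 5 compared members lay above the floor on all 3 arrays and had no probe sets marked _s_ or _x_. The filters, the 20th percentile floor and the removal of such probe sets therefore returned the same values. Averaging over probe sets could change only Thra. The floor at the 60th percentile (335 on FGFR3Act, 353 on FGFR3KO and 361 on FGFR3WT) gave 6 of the 10 that moved, since it stands above some mutant signals and shrinks their differences by construction. Beside the values given with Dio2, it gave Dio2 -0.80 and Hsd11b1 -1.79 and Fkbp5 -0.43 for FGFR3Act against FGFR3WT, and Hsd11b1 -0.29 and Fkbp5 -0.08 for FGFR3Act against FGFR3KO. Under it the number of members at least 2-fold apart was 1 for FGFR3Act against FGFR3WT (3 at the 40th percentile) and 2 for FGFR3Act against FGFR3KO (4 at the 40th). For FGFR3KO against FGFR3WT it also fell below the 3 at the 40th percentile, with Dio2 at -0.73. Over all genes the number at least 2-fold apart moved with the floor as well. With the 20th, 40th and 60th percentile it was 891, 468 and 258 for FGFR3Act against FGFR3WT, 591, 288 and 143 for FGFR3KO against FGFR3WT, and 1276, 839 and 508 for FGFR3Act against FGFR3KO. Of 552 values of other named genes 534 held in the same sense, as did 263 of 270 list medians. Here too, a gene above the floor on all 3 arrays kept its value under the filters and the lower floor. No paired analysis was possible because each genotype has 1 array. Signals near the floor, Dio2 on FGFR3KO and Hsd11b1 on FGFR3Act among them, limit how large a difference can be measured.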
